A study of Mus musculus with 8 samples.

Results

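The annexin and S100 genes described here were 9 rows of the count table, chosen by name: Anxa1, Anxa2, Anxa3 and Anxa5 among the annexins and S100a6, S100a10, S100a11, S100a13 and S100a16 among the S100 genes. All 9 were present among the 16791 genes of the table, and all 9 passed the filter on low counts in each comparison below. They were followed in cells that held at least 1 UMI (unique molecular identifier, the tag that counts 1 captured RNA molecule) of Cdh5 or Kdr, which encode the junction protein VE-cadherin and a VEGF receptor of endothelial cells, and 0 UMIs of Ptprc, which encodes the pan-leukocyte protein CD45. This gate kept 28124 of 31028 cells, or 90.6%.

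All 8 mice were adult Pdgfb-iCreERT2-R26R-Brainbow2.1 animals, heterozygous for both transgenes and given a single injection of 150 mg/kg tamoxifen, which switched on the Confetti fluorophores in cells of the Pdgfb lineage. In the 4 MI mice (labelled 244, 250, 255 and 256) the left anterior descending coronary artery was tied off permanently 14 days after tamoxifen, and hearts were taken 7 days later. The 4 healthy mice (227, 228, 239 and 240) were harvested on the same day after tamoxifen and, per the study's methods, had no surgery, so infarction cannot be told apart from the operation with its anaesthesia and analgesia. Ventricular cells positive for CD31 and Confetti and negative for podoplanin were sorted and made into 1 droplet library per mouse, so endothelial cells in which the Pdgfb-driven recombinase had not acted were not sampled. The gate left out 1131 sorted cells with a UMI of Ptprc and 1773 others with no UMI of Cdh5 or Kdr, and what these cells are was not tested.

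Annexins are proteins that bind acidic membrane phospholipids when calcium rises, and S100 proteins are small EF-hand proteins, most of them calcium binders, that work largely by docking on partners. S100a10 protein is the exception among the members, since its EF-hands do not bind calcium. The families meet physically: S100a10 protein pairs with Anxa2 protein in a complex that, on the endothelial surface, binds plasminogen and its activator, and S100a11 protein binds Anxa1 and Anxa2 proteins. Anxa1 protein is best known for restraining leukocyte recruitment through formyl peptide receptors, and Anxa5 protein for shielding exposed phosphatidylserine. In vessels these proteins are known for membrane repair, exocytosis, fibrinolysis and control of inflammation.

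The S100 members share a neighbourhood. On mouse build GRCm38 (GENCODE vM21 annotation), S100a13 (chr3:90514435-90524581), S100a16 (chr3:90537254-90543151) and S100a6 (chr3:90612882-90624181) lay on the plus strand within 110 kb, and S100a11 (chr3:93520488-93526287) and S100a10 (chr3:93555080-93564643) lay 2.90 Mb further along the same chromosome, within 44.2 kb. S100a1 lay head to head with S100a13, on the opposite strand and 42 bases away. The annexins were dispersed, with Anxa1 at chr19:20373428-20390944 on the minus strand, Anxa2 at chr9:69453620-69491795 on the plus strand, Anxa3 at chr5:96793339-96845966 on the plus strand and Anxa5 at chr3:36448923-36475894 on the minus strand.

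Before the values, the upstream sequences of the 4 members that rose with MI are shown, because these genes share a direction in that contrast. They are the 250 bases before the start of transcription as annotated by RefSeq (GRCm38.p6), 5′ to 3′ on the strand of the gene, and entries existed for 7 of the 9 members (Anxa1, Anxa2, Anxa5, S100a6, S100a11, S100a13 and S100a16). Capitals mark TGAGTCA, searched on both strands (TGACTCA on the other) and known as the recognition sequence of AP-1 factors, and TATAAA, searched on the strand of the gene.
Anxa1, chr19:20390672-20390921, minus strand: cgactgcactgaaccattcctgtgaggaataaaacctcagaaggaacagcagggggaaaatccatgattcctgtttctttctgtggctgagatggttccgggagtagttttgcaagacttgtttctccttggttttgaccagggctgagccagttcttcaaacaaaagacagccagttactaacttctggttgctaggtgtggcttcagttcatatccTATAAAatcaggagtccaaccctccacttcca
Anxa2, chr9:69453433-69453682, plus strand: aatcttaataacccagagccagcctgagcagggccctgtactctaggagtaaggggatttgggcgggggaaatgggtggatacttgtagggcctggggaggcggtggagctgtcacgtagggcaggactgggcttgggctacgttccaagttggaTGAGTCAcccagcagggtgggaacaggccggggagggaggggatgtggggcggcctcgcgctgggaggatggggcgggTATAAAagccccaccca
S100a6, chr3:90612644-90612893, plus strand: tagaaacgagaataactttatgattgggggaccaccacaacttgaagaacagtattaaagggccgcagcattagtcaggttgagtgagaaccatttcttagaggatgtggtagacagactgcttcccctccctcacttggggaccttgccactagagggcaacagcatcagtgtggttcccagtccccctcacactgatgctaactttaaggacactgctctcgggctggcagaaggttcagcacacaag
S100a11, chr3:93520246-93520495, plus strand: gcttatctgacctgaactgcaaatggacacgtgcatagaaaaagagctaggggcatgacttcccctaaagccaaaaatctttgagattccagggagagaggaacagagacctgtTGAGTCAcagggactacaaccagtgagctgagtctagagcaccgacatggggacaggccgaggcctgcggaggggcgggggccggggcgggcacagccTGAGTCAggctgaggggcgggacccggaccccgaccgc
The Anxa2 window held TGAGTCA once, 95 to 89 bases before the start, and the S100a11 window held it at 2 places, 136 to 130 and 38 to 32 bases before the start. The windows of Anxa1 and S100a6 held none, nor did those of Anxa5, S100a13 and both starts of S100a16. Of 32851 upstream windows of this length, 4.46% held the letters at least once and 0.167% held them 2 or more times. TATAAA stood 32 to 27 bases before the start of Anxa1 and 17 to 12 bases before that of Anxa2, against 7.59% of all windows with it somewhere. These starts are those of RefSeq. The GENCODE genes above begin further upstream, so that the whole Anxa1 window, the end of the Anxa2 window with its TATAAA and the last bases of the S100a6 and S100a11 windows lie inside them. A match of letters is a description of the sequence and was not tied to binding of any factor.

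The gated cells numbered 2537 to 3423 in the healthy mice and 3373 to 4829 in the MI mice, with 6362191 to 7766578 and 14678936 to 24316413 UMIs. Median UMIs per cell were 1796 to 2130 in healthy and 3472 to 4769 in MI libraries, so shares of cells are given for 1000 UMIs drawn at random from each cell, which left out 1205 healthy and 0 MI cells. Healthy 228 stood apart: 2030 of its barcodes carried nearly the same UMIs as a cell of Healthy 239, and copies made up 55.3% of its cells and 10.9% of the cells of Healthy 227. Endothelial markers were high in every library, with Cdh5, Kdr, Pecam1, Tie1, Emcn and Egfl7 summing to 5153 to 5508 CPM (counts scaled to 1e6 UMIs of the cells summed) in healthy and to 4912 to 5077 CPM in MI mice. Of these 6 genes 2 were called lower in MI by edgeR: Kdr, 1 of the 2 gate genes (-0.90 on the log2 scale, adjusted p = 0.00117), and Emcn (-0.20, adjusted p = 0.0496). With cells gated on Pecam1 in place of Cdh5 or Kdr the members called were the same 4 higher and 2 lower. Macrophage markers, led by Lyz2, moved with MI (summed level of 6 genes 48.1 to 320 CPM in healthy and 479 to 1098 CPM in MI mice), as did fibroblast markers (5 genes, 21.8 to 42.6 and 71.7 to 139 CPM). Of the 4 fibroblast markers tested, Dcn and Col1a1 were called higher in MI and Pdgfra lower (-1.79 on the log2 scale, adjusted p = 0.00361). Neutrophil markers stood at 268 CPM in MI 244 and at 0 to 25.1 CPM in the other mice, pericyte or smooth muscle markers reached 472 CPM in Healthy 239 and 64.7 to 202 CPM elsewhere, and the only mesothelial marker in the table, Upk1b, was at 0 in 7 mice. Of the 6 pericyte or smooth muscle markers, Cspg4 was called lower in MI (edgeR log2 fold change -1.23, adjusted p = 0.0373), at a mean of 1.43 CPM. Lymphatic markers (14.2 to 218 CPM) and cardiomyocyte markers (33.3 to 90.6 CPM) overlapped between the groups as sums, although Pdpn (2.47 on the log2 scale, adjusted p = 0.00858) and Prox1 (1.94, adjusted p = 0.0270) of the 5 lymphatic markers were called higher in MI and Tnni3 of the 6 cardiomyocyte markers lower (-0.90, adjusted p = 0.0483), and platelet markers were lower in MI (29.5 to 32.8 CPM against 51.4 to 77.8 CPM).

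The first comparison asked whether the members differed between infarcted and healthy hearts over all gated cells. S100a6, Anxa1, S100a11 and Anxa2 rose, by 2.14, 2.31, 1.79 and 1.59 times, Anxa3 and S100a13 fell slightly, and Anxa5, S100a10 and S100a16 did not pass the test. Counts were summed per mouse and tested with edgeR's quasi-likelihood test, adjusted over the 12498 genes tested. The 4 members called higher of 9 stand beside 18.9% of all genes called higher, and the 2 called lower beside 18.3% called lower. The median log2 fold change was 0.17 over the members and -0.02 over all genes. Capillary-like cells, defined below by Car4, were 19.4% to 24.4% of healthy and 3.72% to 13.4% of MI gated cells with at least 1000 UMIs. All 6 capillary markers were called lower in MI (Car4 by -1.56 on the log2 scale). Fewer capillary cells and less Car4 RNA per cell cannot be told apart in this share. The same comparison within capillary-like and within arterial-like cells is given below. Throughout, fewer cells with a gene's RNA and less RNA per cell cannot be told apart in a sum over cells. The 8 libraries came from 8 separately named mice, although Healthy 228 had copied pairs of cells with Healthy 239 (2030) and Healthy 227 (301). How the copies arose was not tested. The tests and SDs over mice take the 8 mice as independent, which these pairs put in doubt for the healthy group.

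S100a11 encodes a small partner of annexins in membrane repair. Its level was 721, 589, 680 and 604 CPM in Healthy 227, 228, 239 and 240 and 1338, 1193, 1292 and 1103 CPM in MI 244, 250, 255 and 256. Every MI mouse lay far above every healthy mouse, with little spread within either group. The log2 fold change was 0.84 ± 0.09 (standard error, adjusted p = 0.000286).

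S100a6, also called calcyclin, was first described in growing cells. It stood at 200, 262, 374 and 236 CPM in the healthy mice, in the same order, and at 598, 526, 768 and 536 CPM in the MI mice. The groups did not overlap, with Healthy 239 the highest of its group and MI 255 the highest of all. This was a log2 fold change of 1.10 ± 0.19 (adjusted p = 0.00225).

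Anxa1 gave the fewest UMIs of the 9 members and was uneven between MI mice. Its level was 38.2, 46.3, 68.9 and 65.3 CPM in healthy mice and 170, 103, 182 and 81.9 CPM in MI mice. MI 244 and MI 255 were high, and MI 256 lay closest to the healthy mice. The log2 fold change was 1.21 ± 0.27 (adjusted p = 0.00758).

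Anxa2, the annexin of the plasminogen-binding complex, stood at 509, 410, 549 and 518 CPM in healthy mice and at 959, 740, 982 and 657 CPM in MI mice. The order of the MI mice was the same as for Anxa1, with 255 and 244 high and 256 lowest. Its log2 fold change was 0.66 ± 0.14 (adjusted p = 0.00500).

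S100a10, the partner of Anxa2, did not pass the test. Its levels of 771, 657, 705 and 632 CPM in healthy and 801, 879, 869 and 744 CPM in MI mice overlapped through Healthy 227 and MI 256. The log2 difference was 0.17 ± 0.08 (adjusted p = 0.130), and it passed only when libraries were scaled by total UMIs alone (0.25, adjusted p = 0.0439).

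The proportion of the partners differed between the groups. There were 0.661, 0.624, 0.780 and 0.819 UMIs of Anxa2 per UMI of S100a10 in healthy mice and 1.20, 0.841, 1.13 and 0.883 in MI mice. No MI mouse lay within the healthy range, with means of 0.721 ± 0.0930 and 1.01 ± 0.177 (SD, n = 4 each; two-sided exact permutation test, p = 0.0286, the smallest that 4 against 4 mice allow). In arterial-like cells, defined below, the ratio rose from 0.920 ± 0.104 to 1.32 ± 0.242 (exact permutation p = 0.0286), whereas in capillary-like cells 0.727 ± 0.0728 and 0.833 ± 0.0981 overlapped (exact permutation p = 0.171; SD, n = 4 in each). The ratio of S100a11 to S100a10 UMIs over all gated cells was 0.896 to 0.965 in healthy and 1.36 to 1.67 in MI mice (exact permutation p = 0.0286). These ratios were not adjusted for their number, 4, and whether the difference between the classes exceeds the spread was not tested. The ratios were not recomputed without the copied cells.

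Anxa3 and S100a13 moved the other way by small amounts. Anxa3, an annexin first known from neutrophils, was at 401, 379, 440 and 435 CPM in healthy and 367, 340, 380 and 339 CPM in MI mice. MI 255 lay 1.47 CPM above Healthy 228, so the groups just overlapped. It fell by 0.30 ± 0.07 on the log2 scale (adjusted p = 0.0112), and without the copied cells the call was lost (-0.25, adjusted p = 0.0709). The call was also lost without both cells of each copied pair (-0.24, edgeR adjusted p = 0.0516) and with scaling by total UMIs alone (-0.21, edgeR adjusted p = 0.0527).

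S100a13, a carrier in the release of the growth factor FGF1, was at 620, 592, 557 and 549 CPM in healthy and 470, 507, 485 and 549 CPM in MI mice. MI 256 was within 0.115 CPM of Healthy 240. It fell by 0.29 ± 0.08 on the log2 scale (adjusted p = 0.0193). Leaving out Healthy 228, MI 244 or MI 255 ended the call (adjusted p = 0.0504, 0.0584 and 0.0573). So did scaling by total UMIs alone (-0.20, edgeR adjusted p = 0.0577) and counts of cells thinned to 1000 UMIs (-0.24, edgeR adjusted p = 0.0834).

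Anxa5 and S100a16 gave no call. Anxa5 ranged from 485 to 637 CPM in healthy and from 540 to 735 CPM in MI mice (log2 difference 0.14 ± 0.11, adjusted p = 0.328). S100a16, a broadly expressed S100 protein, kept to 672 to 718 CPM and 658 to 721 CPM (-0.06 ± 0.07, adjusted p = 0.500). Relative to its mean, its spread between mice was the narrowest of the 9 members, and its direction turned when libraries were scaled by total UMIs alone (0.02).

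**Figure D1:**
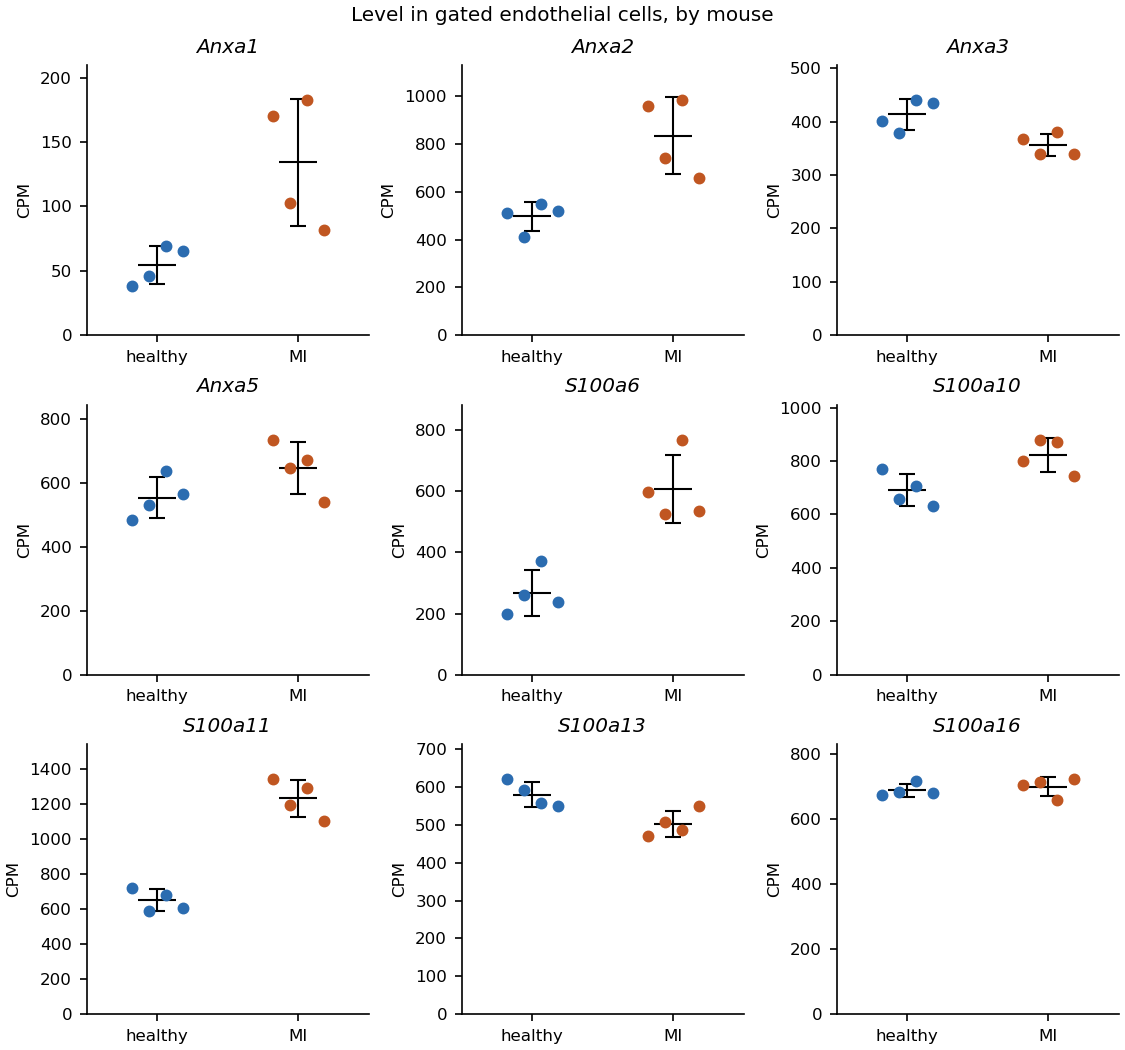
Level of each member in gated endothelial cells (y axis, CPM, from 0) in 4 healthy and 4 MI mice (x axis), with each point 1 mouse in label order and the bars mean and SD. S100a11 is at 589 to 721 CPM in healthy and 1103 to 1338 CPM in MI mice, while S100a16 stays at 658 to 721 CPM in all 8.

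In CPM alone, 4 members lay higher in every MI than in every healthy mouse (Anxa1, Anxa2, S100a6 and S100a11), beside 23.3% of all genes tested, and 1 lay lower in every MI mouse (S100a13), beside 12.2%.

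The second question was whether the calls rested on cells that also held markers of other cell types. Gated cells with 2 or more UMIs of macrophage, neutrophil, fibroblast, pericyte or smooth muscle, or mesothelial markers made up 1.62% to 7.33% of healthy and 30.1% to 58.6% of MI cells. Without them, S100a11 (log2 fold change 0.77, adjusted p = 0.000549), S100a6 (0.94, adjusted p = 0.00585), Anxa2 (0.51, adjusted p = 0.0119) and Anxa1 (0.95, adjusted p = 0.0220) stayed called, and so did Anxa3 (-0.25, adjusted p = 0.0264) and S100a13 (-0.25, adjusted p = 0.0452). The 4 rises were smaller than with all cells. The limit of 2 UMIs was set on the deposited counts, and MI cells were deeper and their level of Lyz2 higher, so the shares over the limit also move with these. Their part in the result was not tested.

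The members were also read in the cells with a UMI of Ptprc, which the gate removed. Whether each of these is a leukocyte, or a mixed droplet or one with free RNA, was not tested. In the 984 such cells of MI mice, pooled, S100a6 was at 862 CPM and Anxa1 at 248 CPM, above the 611 and 139 CPM of gated MI cells. Anxa2 (602 CPM), S100a11 (735 CPM) and S100a10 (509 CPM) were lower there than in gated MI cells (850, 1244 and 831 CPM). In the 147 such cells of healthy mice, Anxa1 (375 CPM against 55.7 CPM in gated healthy cells) and S100a6 (963 against 272 CPM) were further above the gated level, whereas Anxa2 (440 against 499 CPM), S100a11 (618 against 647 CPM) and S100a10 (647 against 689 CPM) were closer to it. These pooled levels have no replicate error.

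At equal depth, the share of cells with a UMI was higher in every MI than in every healthy mouse for S100a11, S100a6 and Anxa2. A UMI of S100a11 was found in 46.9%, 42.6%, 45.1% and 41.5% of cells of the healthy mice and in 66.9%, 63.1%, 65.6% and 60.9% of cells of the MI mice. S100a6 was found in 12.5%, 18.4%, 20.9% and 13.9% of healthy and 32.7%, 30.2%, 40.5% and 27.5% of MI cells. Anxa2 was found in 31.3% to 38.4% and 40.6% to 56.9%. Each of these gave p = 0.0286 in the two-sided exact permutation test over mice, the smallest possible, with no adjustment over the 9 members. For Anxa2 the p was 0.0571 without any 1 of the 4 healthy mice, while S100a6 and S100a11 stayed at 0.0286 (exact permutation tests).

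Anxa3 was found in fewer cells in MI, 28.7% to 30.5% against 31.7% to 34.2% (exact permutation p = 0.0286; 0.143 without the copied cells, 0.114 at 1500 UMIs, and 0.0571 without MI 250 or MI 256). Anxa1 was found in 3.28% to 5.31% of healthy and 4.48% to 14.3% of MI cells, with MI 256 inside the healthy range (exact permutation p = 0.0857). Anxa5, S100a10, S100a13 and S100a16 overlapped between groups (exact permutation p = 0.286, 0.0857, 0.143 and 0.714). At 750 and at 1500 UMIs, however, Anxa1 was found in more and S100a13 in fewer MI cells with an exact permutation p = 0.0286 in each, and without MI 256 the same p was reached by Anxa1 and S100a10. The 3 members above in every MI mouse stand beside 17.7% of all tested genes and the 1 below beside 7.89%. Unthinned, all 9 members were found in more MI than healthy cells on average, from 10.1% and 35.5% for Anxa1 to 72.0% and 89.7% for S100a16, in libraries of unequal depth.

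Cells with a UMI of both partners Anxa2 and S100a10 in 1000 made up 17.3%, 13.7%, 18.6% and 16.5% of healthy and 27.0%, 26.4%, 32.2% and 20.2% of MI cells. The groups did not overlap, MI 256 being again the lowest of its group. This share moves with the share of each gene alone, which for Anxa2 was higher in MI, and whether the partners met in a cell more often than those shares give was not tested. The share with both was not recomputed without the copied cells. In the cells of MI mice with a Ptprc UMI (median 7399 UMIs against 4211 in gated cells), the share with Anxa2 after thinning was 36.1%, against 49.6% of gated MI cells, and that with S100a16 was 16.5% against 48.6%.

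To see where in the endothelium the members were used, cells were classed on thinned counts by 1 defining gene: Car4, an enzyme of capillary endothelium (capillary-like, 3815 cells), Gja4, an arterial connexin (arterial-like, 1880 cells), at least 2 UMIs of Plvap, the diaphragm protein of fenestrae and caveolae (Plvap-high, 1082 cells), and Cytl1 (endocardial-like, 107 cells). The remaining cells met no limit (19811, or 73.6%) or more than 1 (224). The markers that did not define the classes mostly followed them: Gpihbp1 and Fabp4 were highest in capillary-like, Sox17 and Hey1 in arterial-like and Npr3 and Plagl1 in endocardial-like sums, but Vwf and Bgn, listed for the Plvap-high class, and Bmx, listed for the arterial-like class, were highest in endocardial-like sums. Healthy mice gave only 1 to 5 Plvap-high cells each, and endocardial-like sums of 20 cells or more came from MI 250, 255 and 256 only, so these 2 classes describe infarcted hearts. Plvap-high cells were also the deepest (median 6133 to 7503 UMIs in MI mice, against 2814 to 3595 in capillary-like cells), which was not tested as a source of the differences.

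S100a6 was low in capillary-like cells and higher in the other 3 classes. At equal depth a UMI of it was found in 7.18% to 27.1% of capillary-like and 37.6% to 62.4% of arterial-like cells over the 8 mice, and in 43.0% to 52.6% of Plvap-high cells over the 4 MI mice. Its level was 120, 147, 170 and 111 CPM in capillary-like and 568, 575, 831 and 754 CPM in arterial-like cells of the healthy mice, and at 272, 325, 407 and 240 CPM against 1174, 996, 1364 and 1070 CPM in MI mice. The arterial-like level was higher in 8 of 8 mice, by 3.07 to 6.79 times within a mouse. The log2 fold change with mouse as a block was 2.04 ± 0.10 (adjusted p = 4.25e-16 over 10882 genes). Arterial-like cells of healthy hearts thus had a higher S100a6 level in CPM than capillary-like cells of infarcted hearts, in every mouse.

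Anxa1 (0.61 ± 0.11, adjusted p = 8.81e-05), S100a11 (0.51 ± 0.06, adjusted p = 1.43e-07), Anxa2 (0.26 ± 0.07, adjusted p = 0.00707) and S100a13 (0.18 ± 0.06, adjusted p = 0.0232) were also higher in arterial-like cells. S100a11 was higher in 8 of 8 mice, by 1.36 to 1.59 times, and Anxa1 in 7 of 8, the exception being Healthy 227. S100a10 was lower (-0.25 ± 0.06, adjusted p = 0.00163), in 7 of 8 mice. Anxa3 (0.06 ± 0.06), Anxa5 (0.18 ± 0.07) and S100a16 (0.09 ± 0.05) gave no call (adjusted p = 0.588, 0.0749 and 0.284). The counts of 5 higher and 1 lower of 9 members stand beside 11.9% and 10.3% of all genes.

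The Anxa2 call was lost with classes set on unthinned counts (0.08, adjusted p = 0.283) and without MI 244 (0.21, adjusted p = 0.0582). The S100a13 call was lost without any of Healthy 227, MI 244, MI 250 or MI 256 (adjusted p = 0.0505 to 0.0845) and with no filter on low counts (0.15, adjusted p = 0.114). Anxa5 was called higher without MI 255 (0.22, adjusted p = 0.00726).

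In Plvap-high cells of the 4 MI mice S100a6, Anxa1 and Anxa2 were higher than in capillary-like cells. S100a6 was at 932, 789, 755 and 754 CPM (MI 244, 250, 255 and 256), above the capillary-like level in 4 of 4 mice (log2 fold change 1.51 ± 0.12, adjusted p = 4.51e-11). Anxa1 was at 242, 165, 203 and 142 CPM against 116, 55.4, 116 and 39.2 CPM in capillary-like cells of the same mice (1.33 ± 0.12, adjusted p = 2.22e-10). Anxa2 was at 1164, 990, 874 and 879 CPM (0.57 ± 0.09, adjusted p = 6.31e-06).

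The same cells were low in other members. Anxa5 (395 to 608 CPM, log2 fold change -0.32 ± 0.09, adjusted p = 0.00946) and S100a16 (543 to 629 CPM, -0.29 ± 0.07, adjusted p = 0.00166) were below the capillary-like level in 4 of 4 mice. S100a11 passed narrowly (0.23 ± 0.08, adjusted p = 0.0337), was not higher in MI 255, and lost its call without Healthy 228, MI 244, MI 250 or MI 256 (adjusted p = 0.0549 to 0.190), with no filter on low counts (0.19, adjusted p = 0.0759) and with a limit of 3 Plvap UMIs (0.21, adjusted p = 0.0592). Anxa3, S100a10 and S100a13 gave no call (adjusted p = 0.288, 0.475 and 0.276). In all, 4 members were called higher, beside 14.7% of genes, and 2 lower, beside 12.8%.

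In endocardial-like cells, with only 23, 30 and 24 cells in the 3 mice and 17 to 35 UMIs of Anxa1 in each, Anxa1 was at 217, 252 and 151 CPM (log2 fold change 1.51 ± 0.23 against capillary-like, adjusted p = 1.42e-05) and S100a6 at 1106, 663 and 746 CPM (1.46 ± 0.17, adjusted p = 1.44e-07). Both were above the capillary-like level in 3 of 3 mice. At equal depth, however, Anxa1 was found in 6.67% to 8.70% of endocardial-like cells, against 2.14% to 8.57% of capillary-like cells over 8 mice and at least 11.4% of Plvap-high cells in each of 4 MI mice (mean 14.5%). Anxa2 passed (0.40 ± 0.12, adjusted p = 0.0275) but not without MI 250 (adjusted p = 0.254) or MI 244 (adjusted p = 0.063), with no filter on low counts (adjusted p = 0.0577), with classes set on unthinned counts (adjusted p = 0.144) or with Plvap-high cells taken from 3 UMIs (adjusted p = 0.0572). The 3 members called higher stand beside 5.40% of genes and the 0 called lower beside 5.27%; at an unadjusted p under 0.05, edgeR also gave 0 lower, and DESeq2 gave 0 lower and 4 higher at an adjusted p under 0.05. The 1 that DESeq2 added was S100a11 (0.38, adjusted p = 0.00724), which edgeR also called without MI 255 (0.47, adjusted p = 0.00188). With classes set on unthinned counts, where 2 MI mice had such a sum, Anxa5 (-0.49, adjusted p = 0.0374) and S100a13 (-0.44, adjusted p = 0.0357) were called lower. The median over all genes in this contrast was -0.10 (log2).

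**Figure D2:**
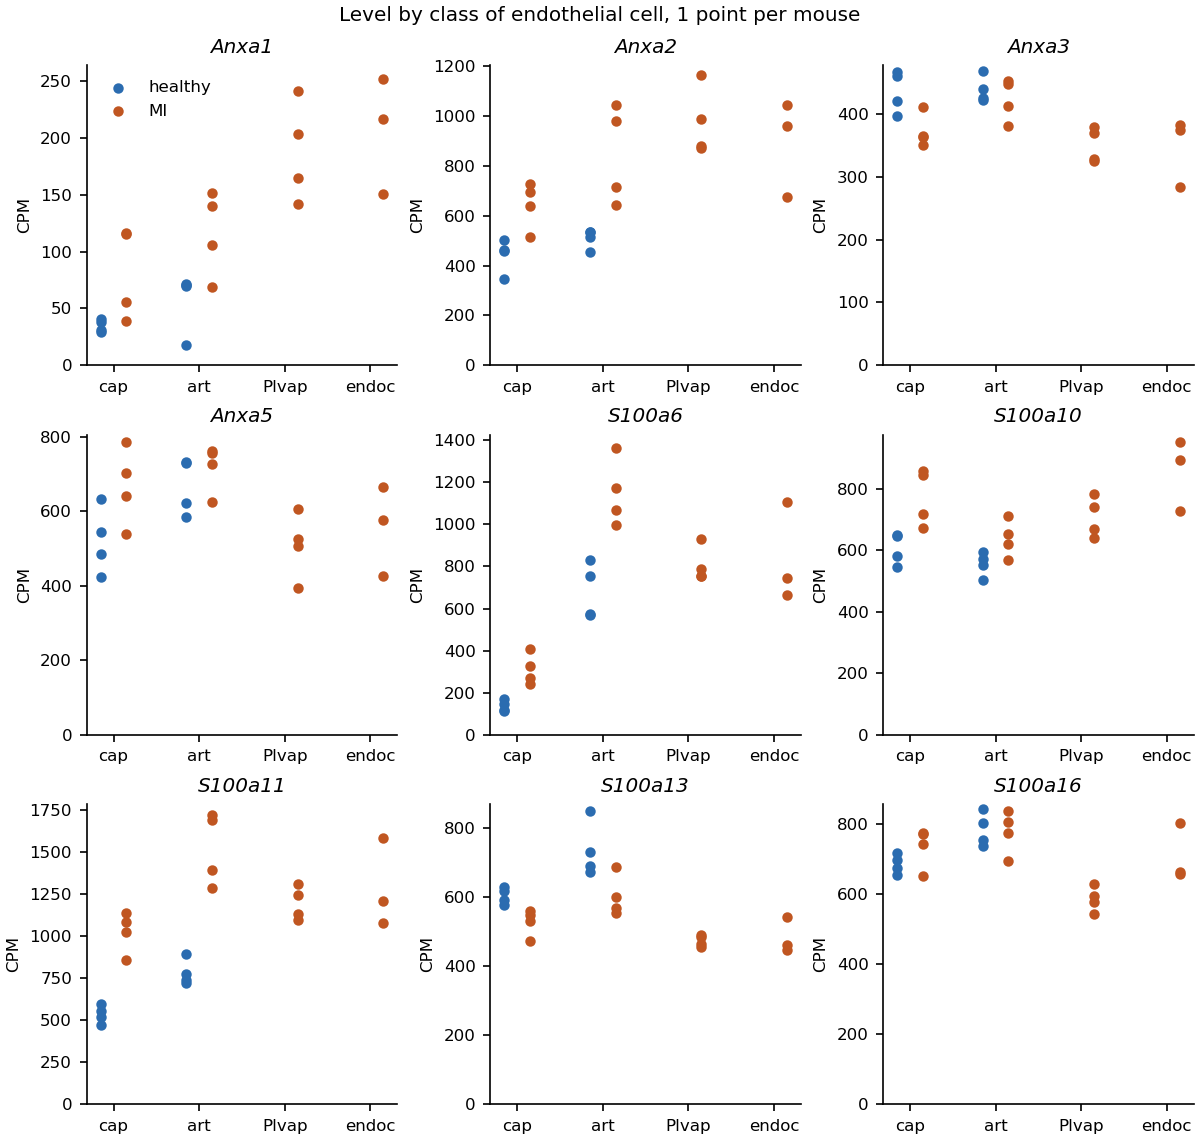
Level of each member (y axis, CPM, from 0) in capillary-like (cap), arterial-like (art), Plvap-high (Plvap) and endocardial-like (endoc) cells, 1 point per mouse with at least 20 such cells, healthy and MI side by side. S100a6 is at 111 to 407 CPM in all capillary-like and 568 to 1364 CPM in all arterial-like sums, and the last 2 classes have MI mice only.

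The next comparison asked whether the MI difference was there within a class. Capillary-like cells were picked by Car4, itself lower in MI, and what this adds to the comparison was not tested. In capillary-like cells S100a11 (0.88 ± 0.11, adjusted p = 0.000384), S100a6 (1.11 ± 0.17, adjusted p = 0.00133), Anxa2 (0.48 ± 0.13, adjusted p = 0.0226) and Anxa1 (1.08 ± 0.30, adjusted p = 0.0286) rose. That is 4 of 9 members beside 7.13% of 8847 genes, while 0 were called lower beside 7.62% (2 at an unadjusted p under 0.05, Anxa3 and S100a13, and 0 by DESeq2). With classes set on unthinned counts both were called lower (Anxa3 -0.35, adjusted p = 0.0131; S100a13 -0.28, adjusted p = 0.0414). S100a10 was called higher without MI 256 (0.33, adjusted p = 0.0446). S100a11 went from 598, 471, 554 and 519 CPM to 1085, 1025, 1140 and 857 CPM, with no overlap. The Anxa1 call was lost without Healthy 227, Healthy 228, MI 244 or MI 255 (adjusted p = 0.0675 to 0.102), and the Anxa2 call without Healthy 228, MI 244, MI 250 or MI 255 (adjusted p = 0.0583 to 0.0712).

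In arterial-like cells S100a11 (0.91 ± 0.12, adjusted p = 0.000362), S100a6 (0.68 ± 0.14, adjusted p = 0.00623) and Anxa2 (0.67 ± 0.15, adjusted p = 0.00837) rose, 3 of 9 beside 5% of 8402 genes. S100a11 went from 893, 724, 774 and 740 CPM to 1724, 1397, 1694 and 1287 CPM and Anxa2 from 533, 455, 513 and 537 CPM to 981, 717, 1043 and 644 CPM, again without overlap. Anxa1 did not pass by edgeR (0.85 ± 0.28, adjusted p = 0.0603). It passed by DESeq2 (0.90, adjusted p = 0.0458), with no filter on low counts (0.91, adjusted p = 0.00266), with classes set on unthinned counts (0.76, adjusted p = 0.0416), without the copied cells (1.07, adjusted p = 0.0372) and without MI 256 (1.02, adjusted p = 0.00975). None was called lower beside 6.17% of genes: 0 of 9 by edgeR and by DESeq2, and 1, S100a13, at an unadjusted p under 0.05. Without MI 256, S100a13 was called lower (-0.42, adjusted p = 0.0228).

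For no member was the MI effect called different between arterial-like and capillary-like cells. Of 10279 genes, 0.438% had a larger and 0.292% a smaller effect in arterial-like cells, and of the members 0 and 0 (0 larger and 2 smaller, Anxa5 and S100a6, at an unadjusted p under 0.05, and 0 and 0 by DESeq2). The nearest was S100a6, with a log2 difference of -0.38 ± 0.14 (adjusted p = 0.294). With classes set on the unthinned counts it was called (-0.73, adjusted p = 0.00287), and S100a6 then no longer passed in arterial-like cells (0.34, adjusted p = 0.0560). For S100a11 the difference was 0.05 ± 0.09.

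**Figure D3:**
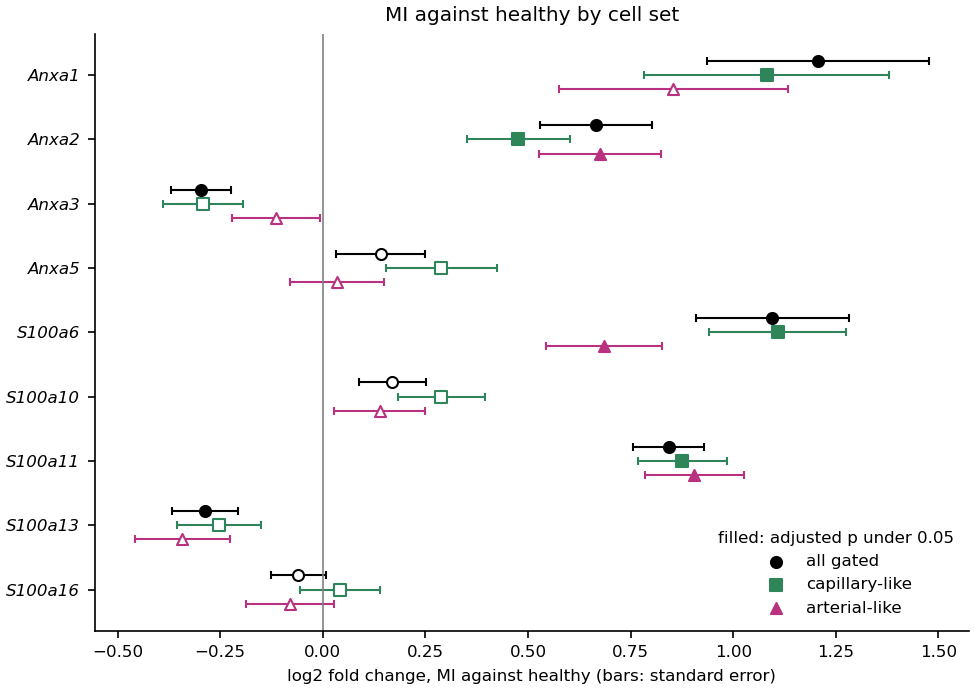
Log2 fold change of MI against healthy (x axis, bars standard error) for each member (y axis) in all gated, capillary-like and arterial-like cells, filled where the adjusted p was under 0.05. S100a11 lies at 0.84, 0.88 and 0.91 in the 3 sets, and S100a16 at -0.06, 0.04 and -0.08.

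Since Plvap-high cells were nearly all from MI mice, the members were also read by the number of Plvap UMIs in 1000. In gated cells with 0 Plvap UMIs, S100a6 was at 265 ± 77.7 CPM in healthy and 566 ± 117 CPM in MI mice, S100a11 at 648 ± 64.5 and 1241 ± 115 CPM, Anxa2 at 493 ± 66.3 and 822 ± 170 CPM and Anxa1 at 54.0 ± 14.2 and 126 ± 47.0 CPM (SD, n = 4 mice in each). For these 4 members the groups did not overlap in such cells, and for the other members they did. The share of all genes without overlap was not computed for such cells. Over all gated cells, 23.3% of genes tested lay higher in every MI mouse. A cell with 0 Plvap UMIs among the 1000 drawn can hold Plvap UMIs beyond them, so these cells were not shown to lack Plvap.

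Within MI hearts, S100a6 was at 566, 786, 816 and 805 CPM in cells with 0, 1, 2 to 3 and 4 or more Plvap UMIs, and Anxa2 at 822, 876, 950 and 1035 CPM (means of 4 mice). S100a6 and Anxa1 were higher in cells with 2 or more Plvap UMIs than in cells with 0 in 4 of 4 mice, by 1.03 to 1.83 and 1.17 to 1.81 times, and Anxa2 in 3 of 4. S100a16 stepped down, 719, 670, 605 and 558 CPM, and was lower in 4 of 4 mice, as were Anxa5 and S100a10. S100a11 stayed level at 1241, 1249, 1217 and 1191 CPM.

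**Figure D4:**
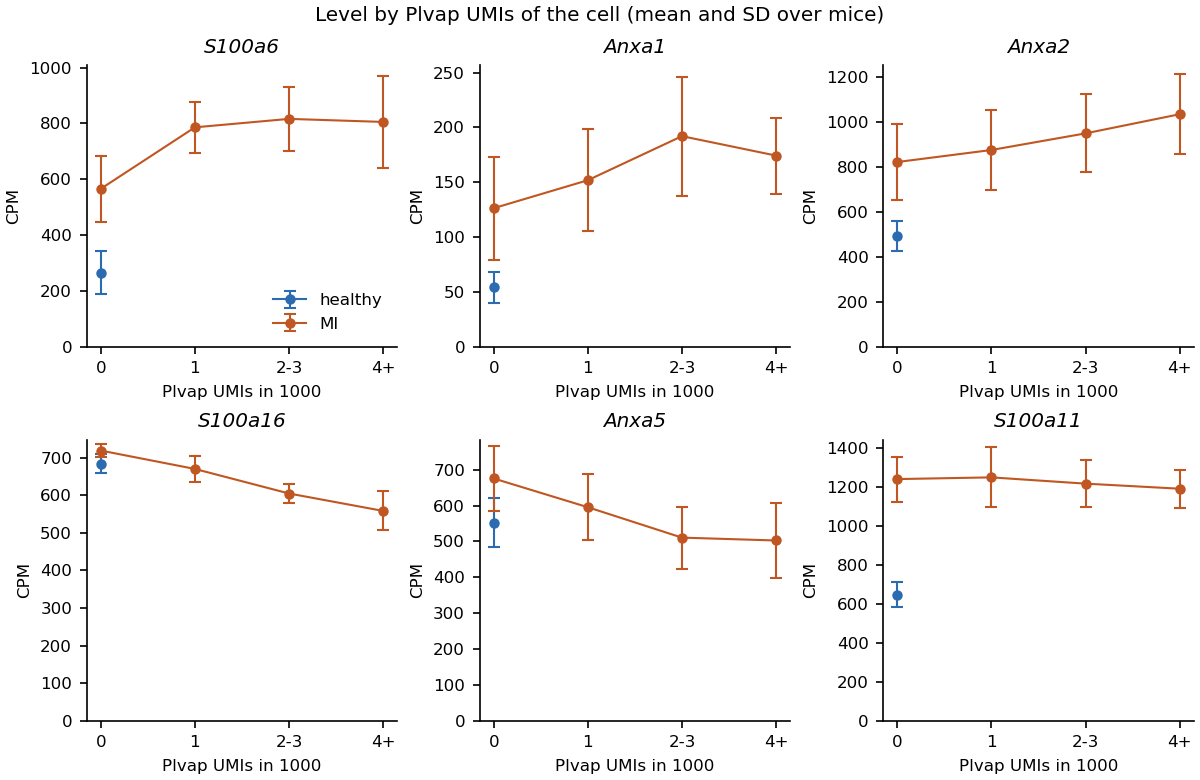
Level (y axis, CPM, from 0) by Plvap UMIs of the cell in 1000 (x axis), mean and SD over mice with at least 20 cells, for healthy (0 Plvap UMIs only) and MI mice. In MI mice S100a6 goes from 566 to 805 CPM and S100a16 from 719 to 558 CPM, while S100a11 is at 1191 to 1249 CPM throughout.

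Likeness between genes was measured as Pearson's r of log2(CPM + 1) over 23 sums of a mouse and class, each centred on its mouse, among 3306 genes of 50 CPM or more. It is a description of the pattern over the 4 classes, since sums of a mouse share a library. S100a6 was nearest to Col18a1 (r = 0.97), Igfbp4 (0.96) and Ace (0.95), and S100a11 was nearest to S100a6 itself (0.92), then Arpc1b (0.92) and Fbln5 (0.90). Anxa1 was nearest to Gpx1 (0.93), Ninj1 (0.91) and Il6st (0.91), and Serf2 (0.88) and Slc25a4 (0.87) were among the 3 nearest to Anxa2.

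The other members had different neighbours. Anxa5 was nearest to Ifi47 (0.94), Emp2 (0.92) and Trappc6b (0.92), S100a16 to Capn2 (0.93), Icam2 (0.93) and Ormdl3 (0.92), and S100a13 to Osbpl9 (0.93), Nebl (0.90) and Tsc22d1 (0.89). Anxa3 (Nedd9, 0.84; 8430408G22Rik, 0.81; Timm17a, 0.79) and S100a10 (Rcn1, 0.84; Smagp, 0.79; Fxyd6, 0.78) had the loosest neighbours.

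Of a list of 20 further genes of the annexin and S100 families, which also holds S100pbp, the gene of a binding partner and no family member (not called), 15 were in the table and 11 passed the filter on low counts. Over all gated cells 2 were called higher and 1 lower, beside 18.9% and 18.3% of all genes, so the list stood near the background. The 2 higher in MI were Anxa6, a large annexin with duplicated core, from 66.6 to 86.9 CPM in healthy to 116 to 155 CPM in MI mice (log2 fold change 0.80 ± 0.11, adjusted p = 0.00104), and Anxa4, from 37.1 to 56.4 CPM to 64.0 to 81.1 CPM (0.55 ± 0.13, adjusted p = 0.00916). S100a1, the head-to-head neighbour of S100a13 and best known from cardiomyocytes, fell (186 to 220 CPM against 133 to 183 CPM; -0.41 ± 0.11, adjusted p = 0.0186). S100a8, a neutrophil alarmin, was at 112 CPM in MI 244 and at 0 to 11.9 CPM in the other 7 mice, and gave no call (adjusted p = 0.146).

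Of 16 genes for partners and ligands of the members, 15 were in the table and 11 were tested, with 4 called higher and 1 lower, beside the same 18.9% and 18.3% of all genes. Plaur, the urokinase receptor, rose from 6.57 to 22.6 CPM to 34.9 to 59.3 CPM (1.40 ± 0.30, adjusted p = 0.00598). Myof, a ferlin of membrane repair, and Plau, urokinase, were also called higher with means of 6.32 and 2.21 CPM. Ahnak, a scaffold that binds the complex of Anxa2 and S100a10 proteins, was called lower (-0.54 ± 0.19, adjusted p = 0.0497), although MI 256 (378 CPM) lay above Healthy 239 and 240 (335 and 319 CPM). Plat, tissue plasminogen activator, did not pass (0.35 ± 0.13, adjusted p = 0.0570).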

How the data were processed

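The authors sorted the cells, sequenced 1 10X Chromium Single Cell 3' library per mouse and, per the labels and methods, used Cell Ranger with mm10 (Ensembl 84), R 3.5.2 and Seurat 2.3. They deposited 1 table of raw counts, the UMIs of each gene in each cell, already filtered by the authors: over its 31028 cells the fewest genes were 403 and the highest mitochondrial share was 19.96%, within the limits of 400 genes and 20% in the study's methods. Its 2750 to 3807 cells per healthy and 3581 to 5109 per MI mouse are more than the study states after that filter. All columns of the table were assigned to a mouse by name.

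Here, deposited counts of gated cells were summed per mouse, or per mouse and class for sums of at least 20 cells, and tested with edgeR 4.0.16 (R 4.3.3; TMM, filterByExpr, quasi-likelihood test, Benjamini-Hochberg adjustment over all genes tested, threshold 0.05). CPM are a gene's UMIs scaled to 1e6 UMIs of the cells summed. Class contrasts had mouse as a block. Healthy mice had too few Plvap-high and endocardial-like cells for a test of MI within these classes. Cells were thinned to 1000 UMIs with a fixed seed, and shares were compared over mice with a two-sided exact permutation test (70 splits). A cell counted as copied when at least 90% of its UMIs were matched in a cell of another library with the same barcode. The shallower copy was left out in 1 alternative. No doublet caller was run. The scripts were tested on simulated counts. All 9 members are described. Of the further annexin, S100 and partner genes, those called with a mean of at least 20 CPM are named, and S100a8, Myof, Plau and Plat were added after their values were seen. Some genes that this rule or the other rules would name are not reported here. The members, gene lists and tests were chosen with earlier results of these data known. Alternatives used DESeq2 1.42.0, limma-voom (limma 3.58.1), other scaling, filters, gates, classes and depths, and left out each mouse in turn. Sequences came from RefSeq (GRCm38.p6) and gene positions from GENCODE vM21. The UMI totals limit precision through counting error, which is in the spread between mice.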

Additional observations from a re-analysis of the deposited data

Results flagged for a closer look

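The level of Anxa1 in arterial-like cells of Healthy 227 was 17.8 CPM, while Healthy 228, 239 and 240 were at 69.5, 70.5 and 71.3 CPM. The gap to its nearest neighbour was 0.966 of the range of the healthy group. Healthy 228 and Healthy 239 had 2030 copied pairs of cells, and what these add to the closeness of their values was not tested. The chance given below takes the mice as independent. The value rests on 4 UMIs of Anxa1 in 85 cells, against 21 to 53 UMIs in the other healthy mice. In this way 72 groups of 4 mice were looked at. They covered the 9 members in all gated cells, in shares at 1000 UMIs, in capillary-like and in arterial-like cells. The healthy group for Anxa1 in arterial-like cells was the only one with a mouse that stood so far apart. Chance gives about 1 in 20 such groups, which is more than the 1 of 72 seen.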

How the results depend on the processing

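The rises of S100a6, S100a11, Anxa1 and Anxa2 over all gated cells kept their direction and passed in each of 18 alternatives (S100a6 0.94 to 1.30, S100a11 0.77 to 0.95, Anxa1 0.95 to 1.53 and Anxa2 0.51 to 0.80 on the log2 scale). The members called lower, 2 in the report, were 0 with scaling by total UMIs alone, and 1 with counts of cells thinned to 1000 UMIs, without the copied cells, and without both cells of each copied pair (chosen after seeing the data). Leaving out 1 mouse gave 4 to 4 higher and 1 to 2 lower members. No paired analysis was possible because the groups share no replicate numbers.

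Genes called over all gated cells numbered 4647, and 2641 with thinned counts (3303 to 5062 without 1 mouse). With classes set on unthinned counts, the counts went from 1305 to 2653 for MI in capillary-like cells, from 938 to 1521 for MI in arterial-like cells, from 1162 to 298 for endocardial-like against capillary-like cells, and from 75 to 210 for the difference of the MI effect, which also went to 174 with no filter on low counts. Without 1 mouse these 4 counts were 656 to 1626, 578 to 1241, 727 to 1188 and 47 to 92, and the members with p under 0.05 in shares were 3 to 5 (4 in the report, 6 at 750 UMIs and 5 at 1500 UMIs, exact permutation test). The causes were not tested.

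Directions turned only for members without a call. S100a16 went to 0.0232 with scaling by total UMIs alone, and its share difference to -0.183 percentage points at 750 UMIs. For endocardial-like cells Anxa3 went to 0.0143 with classes on unthinned counts and S100a10 to -0.0206 with no filter. For the difference of the MI effect, S100a11 went to -0.10 and S100a13 to 0.0211 with classes on unthinned counts. Leaving out 1 mouse gave -0.00470 to 0.10 for S100a16 in capillary-like cells, -0.0182 to 0.10 for Anxa5 in arterial-like cells, -0.15 to 0.0163 for S100a10 in Plvap-high cells, -0.39 to 0.00978 for Anxa5 in endocardial-like cells, and -0.0396 to 0.997 percentage points for the share of S100a16. Of 864 recomputed log2 fold changes of members, 804 kept direction and call, 35 lost and 16 gained a call, and 9 turned. MI within Plvap-high or endocardial-like cells was not tested, because 0 healthy mice had 20 such cells with the classes of the report, with classes on unthinned counts, with Plvap-high from 3 UMIs or without the copied cells. The endocardial-like level of Anxa1 rests on 17 to 35 UMIs per mouse, and its arterial-like level in Healthy 227 on 4 UMIs.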

Other observations

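Gated-out cells with neither Cdh5 nor Kdr and no Ptprc (1338 healthy and 435 MI cells, pooled over mice, with no replicate error) held the members too. S100a6 was at 571 CPM in those of healthy and 683 CPM in those of MI mice, against 272 and 611 CPM in gated cells of the same groups. Anxa1 was at 114 and 234 CPM, against 55.7 and 139 CPM. S100a16 was at 581 and 333 CPM. Among cells with a Ptprc UMI, S100a16 was at 162 CPM in 147 healthy cells and 239 CPM in 984 MI cells, against 690 and 698 CPM in gated cells of the same groups.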
